A study of Mus musculus with 2 samples.

Results

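Expression of 7 genes, *Nfatc1*, *Nfatc2*, *Nfatc3*, *Rcan1*, *Irf4*, *Prdm1* and *Tox*, was examined in lung group 2 innate lymphoid cells (ILC2s). They encode the NFAT factors of the calcium response, a regulator of that response and 3 transcription factors linked to it. These 7 of the 32285 genes in the count matrices were chosen by name, for their place in an activation pathway. The choice was made with earlier results of these data known. A share of all genes set beside a count of members is therefore a description, not a test. Single-cell RNA-Seq had been performed on ILC2s sorted from mouse lung as live lineage-negative cells carrying CD90.2, ST2 and Sca-1. There was 1 WT library and 1 Pac1-/- library, the latter from mice lacking PAC1, a nuclear phosphatase of activated lymphocytes encoded by *Dusp2*. Mice were on the C57BL/6J background, aged 6 to 8 weeks, 4 to 5 animals were pooled per genotype before 13000 cells were loaded, and no treatment was stated for these libraries. Because each genotype was a single pooled library, no test between genotypes was possible. The 95% intervals given here cover counting error only, not differences between cells, mice, sorts or library preparations.

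NFAT proteins are transcription factors held in the cytoplasm by phosphorylation. A rise in cytoplasmic calcium activates the phosphatase calcineurin, which removes those phosphates and lets NFAT enter the nucleus, where it acts with AP-1 and other partners on cytokine genes. *Rcan1* encodes a calcineurin regulator that is itself an NFAT target. *Irf4* encodes a transcription factor graded by antigen receptor strength in T cells and required for many effector programs, *Prdm1* encodes the repressor Blimp-1, and *Tox* encodes an HMG-box factor known for innate lymphoid cell development and T cell exhaustion. In ILC2s, which lack an antigen receptor, calcium and NFAT signals follow leukotriene and neuropeptide receptors.

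The members lie on different chromosomes (GRCm38, GENCODE). *Nfatc1* spans chr18:80606205-80713071 on the minus strand, *Nfatc2* chr2:168476410-168601657 on the minus strand and *Nfatc3* chr8:106058840-106130537 on the plus strand. *Rcan1* lies at chr16:92391953-92470867 on the minus strand, *Irf4* at chr13:30749226-30766976 on the plus strand, *Prdm1* at chr10:44437177-44528501 on the minus strand and *Tox* at chr4:6686353-6991557 on the minus strand. All 7 are protein-coding, and 0 other annotated genes overlap any of them on the same strand.

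*Rcan1* has an internal start used for an NFAT-inducible isoform in other cells, so the bases before its 2 starts are shown first, beside those of *Irf4*, the member whose level varied most with cytokine status, and of *Nfatc2*, whose upstream start held as many NFAT core matches as the internal start of *Rcan1*. The 250 bases before each start were taken from RefSeq (GRCm38.p6), and 5 of the 7 members had a window in the set read here. Capitals mark GGAAA or its reverse TTTCC (the NFAT core), TGACGTCA (the cAMP response element) and TGAGTCA or its reverse TGACTCA (AP-1), and no match overlapped another in the windows printed. They are written 5′ to 3′ on the gene's strand.

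Rcan1, internal start, chr16:92400079-92400328, minus strand: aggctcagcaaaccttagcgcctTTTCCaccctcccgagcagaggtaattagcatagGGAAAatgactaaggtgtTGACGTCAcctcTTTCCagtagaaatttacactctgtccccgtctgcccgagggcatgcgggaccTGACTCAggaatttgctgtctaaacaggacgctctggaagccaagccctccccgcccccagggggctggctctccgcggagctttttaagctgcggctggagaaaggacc
Rcan1, upstream start, chr16:92466170-92466419, minus strand: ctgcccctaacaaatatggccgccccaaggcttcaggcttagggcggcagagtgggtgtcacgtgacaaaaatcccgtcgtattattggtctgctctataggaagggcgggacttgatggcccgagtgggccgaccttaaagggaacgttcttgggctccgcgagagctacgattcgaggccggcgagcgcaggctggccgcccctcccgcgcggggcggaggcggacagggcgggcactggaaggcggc
Irf4, chr13:30748983-30749232, plus strand: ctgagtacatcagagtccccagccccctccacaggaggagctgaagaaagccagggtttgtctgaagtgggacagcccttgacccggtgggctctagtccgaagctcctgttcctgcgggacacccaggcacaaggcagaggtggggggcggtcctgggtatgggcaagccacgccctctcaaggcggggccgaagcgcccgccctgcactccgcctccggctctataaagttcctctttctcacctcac
Nfatc2, upstream start, chr2:168601658-168601907, minus strand: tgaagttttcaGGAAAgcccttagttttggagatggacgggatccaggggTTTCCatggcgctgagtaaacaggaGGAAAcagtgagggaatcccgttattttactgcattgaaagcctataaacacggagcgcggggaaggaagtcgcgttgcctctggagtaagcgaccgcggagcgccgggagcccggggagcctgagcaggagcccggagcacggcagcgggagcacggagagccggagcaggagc

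The window before the internal *Rcan1* start held 3 NFAT core matches, 1 cAMP response element and 1 AP-1 match, while the window before its upstream start held 0 of each. Of 32851 windows of the same length before annotated starts, 6.39% held at least 3 NFAT core matches, 1.55% held a cAMP response element and 4.46% held an AP-1 match. The *Irf4* and *Prdm1* windows held 0 of the 3 motifs, which says only that these letters are absent from these bases. A match describes the sequence and does not show a binding site. Reads came from transcript 3′ ends, so the *Rcan1* isoforms of its 2 starts were counted together.

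A total of 8394 WT and 7087 Pac1-/- barcodes had 500 or more genes detected and no more than 10% of UMIs from mitochondrial genes, out of 10866 and 9495. *Dusp2* had 1419 UMIs (26.0 CPM, that is UMIs of the gene per 1000000 UMIs of all genes) in WT and 5 UMIs (0.0857 CPM) in Pac1-/- cells. Passing cells held a median of 4186.5 UMIs in WT and 5577 in Pac1-/-, for 54579034 and 58338886 UMIs in all. At least 3 of 9 ILC2 markers were detected in 97.5% of WT and 97.3% of Pac1-/- cells, *Gata3* in 88.8% and 90.7%. At least 3 markers of another cell type were found in 99 barcodes of each library, of which 68 in WT and 24 in Pac1-/- carried T cell markers at a median of 19602.5 and 28003 UMIs. Barcodes over 2 times the median UMIs, which can include doublets, were 21.5% of the WT and 19.4% of the Pac1-/- library. The libraries shared 15 barcode sequences among passing cells.

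All 7 members were detected in both libraries, and *Irf4*, *Prdm1* and *Tox* were each lower in Pac1-/- ILC2s (plot of the level of each gene by library). *Irf4* stood at 20.3 CPM in WT (interval, 19.2 to 21.6; 1110 UMIs) and 9.67 in Pac1-/- (8.89 to 10.5; 564 UMIs). The log2 ratio of Pac1-/- to WT as counted was −1.07 (−1.22 to −0.93). *Prdm1* stood at 42.7 CPM in WT and 21.6 in Pac1-/-, a log2 ratio of −0.98 (−1.08 to −0.88). *Tox*, the member with the most UMIs, stood at 162 and 89.8 CPM, a log2 ratio of −0.85 (−0.90 to −0.80). The level in Pac1-/- cells was thus 0.475, 0.507 and 0.555 times the WT level for these 3 factors.

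**Figure D1:**
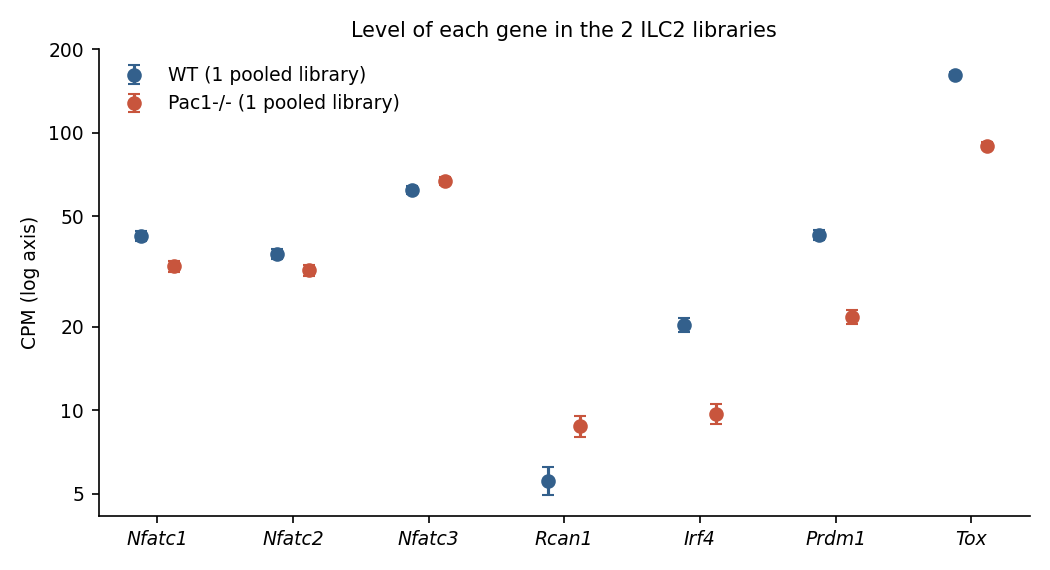
Level of each member in CPM (log axis) in the WT and Pac1-/- library, 1 pooled library each. Bars are 95% Poisson intervals of the count. *Irf4*, *Prdm1* and *Tox* sit lower in Pac1-/-, *Rcan1* sits higher, and *Nfatc3* differs least as counted.

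The NFAT genes themselves differed less. *Nfatc1*, the family member whose short isoform is induced on activation, stood at 42.5 CPM in WT and 33.0 in Pac1-/- (log2 ratio, −0.37, interval −0.45 to −0.28). *Nfatc2*, a constitutive member in lymphocytes, stood at 36.5 and 32.003 (−0.19, −0.28 to −0.10). *Nfatc3* stood at 62.3 and 67.0 (0.10, 0.04 to 0.17). *Rcan1* was the only member higher than WT by more than 1.5-fold as counted, at 5.57 CPM in WT (304 UMIs) and 8.74 in Pac1-/- (510 UMIs), 1.57 times the WT level with a log2 ratio of 0.65 (0.44 to 0.86).

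The median gene of the 12726 genes compared was itself higher in Pac1-/- by 0.19 on the log2 scale, and calls of 1.5-fold were made relative to it. On that scale *Irf4* was lower by 1.26, *Prdm1* by 1.17 and *Tox* by 1.04, so that 3 of 7 members lay at least 1.5-fold below the median gene, against 13.1% of all genes. None of the 7 lay 1.5-fold above it, where 8.58% of all genes did. *Rcan1* came to 0.46 and *Nfatc1* to −0.55, both short of 1.5-fold. The direction for *Nfatc3* depended on the scaling, being 0.10 as counted and −0.08 against the median gene.

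With each cell thinned to 1500 UMIs (7634 WT and 6564 Pac1-/- cells were deep enough, 760 and 523 were left out), *Irf4* was detected in 2.03% of WT (exact Clopper-Pearson interval, 1.73% to 2.37%) and 0.914% of Pac1-/- cells (0.698% to 1.18%). Without thinning these shares were 7.97% and 4.36%. After thinning, *Prdm1* was detected in 5.74% and 2.89%, and *Tox* in 20.9% and 11.97%. *Rcan1* was detected in 0.930% (0.727% to 1.17%) and 1.26% (1.01% to 1.57%), intervals that overlap. *Nfatc3* was detected in 9.04% and 9.10%. Among barcodes with B cell markers, *Tox* was detected, after thinning, in 0 of 8 (WT) and 0 of 24 (Pac1-/-), *Il5* in 1 of 8 and 1 of 24, and *Irf4* in 1 of 8 and 2 of 24. Among barcodes with erythroid markers, *Tox* was detected in 0 of 5 (WT) and 4 of 20 (Pac1-/-), and *Il5* in 0 of 5 and 3 of 20. Those sets are too small to bound free RNA below the shares of *Irf4* or *Rcan1*, and its part in the low shares was not tested.

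The difference between libraries could be read at equal cytokine status, because cells were also grouped by whether they held a UMI of *Il2*, *Il5*, *Il13* or *Tnf*. As counted, it varied little for *Prdm1* and *Tox* (plot of the difference between libraries at each cytokine status). Across the 8 sets of positive or negative cells, the log2 ratio as counted ran from −1.03 to −0.92 for *Prdm1*, from −0.89 to −0.81 for *Tox* and from 0.46 to 0.81 for *Rcan1*. In cells with none of the 4 cytokines it was −1.03 (−1.29 to −0.78) for *Prdm1*, −0.82 (−0.95 to −0.70) for *Tox*, −0.85 (−1.43 to −0.26) for *Irf4* and 0.38 (−0.11 to 0.87) for *Rcan1*. Pac1-/- cells of this set were deeper than WT cells (median, 4503 against 3310 UMIs). With cells thinned to 1500 UMIs and status read again from the thinned counts, the ratio in cells with none was −1.51 (−2.21 to −0.85) for *Irf4*, −1.23 (−1.57 to −0.90) for *Prdm1*, −0.99 (−1.15 to −0.83) for *Tox* and 0.64 (0.02 to 1.28) for *Rcan1*. *Irf4* had the widest range, from −1.64 (−1.89 to −1.40) in *Il13*-negative to −0.52 (−0.71 to −0.33) in *Il13*-positive cells. *Nfatc1* showed the same order, with −0.52 (−0.64 to −0.40) in *Il13*-negative and −0.11 (−0.24 to 0.02) in *Il13*-positive cells.

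**Figure D2:**
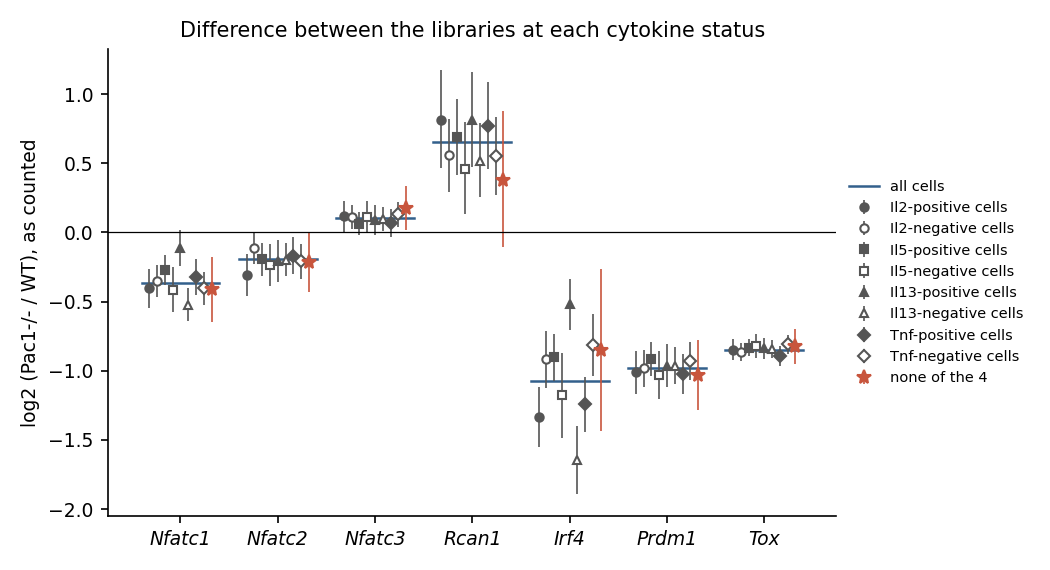
Log2 ratio of Pac1-/- to WT for each member, as counted, in all cells (blue line), in cells positive (filled) or negative (open) for each cytokine and in cells with none of the 4 (red star), with 95% exact binomial intervals. *Prdm1* and *Tox* keep nearly the same ratio throughout, while *Irf4* ranges from −1.64 to −0.52.

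A cytokine UMI was found in 1671 (*Il2*), 4460 (*Il5*), 2420 (*Il13*) and 2490 (*Tnf*) WT cells and in 1809, 2800, 1519 and 1881 Pac1-/- cells. Positive cells were deeper in every case. The median was 7306 against 3809 UMIs for *Il13* in WT, and 9190 against 5183 in Pac1-/-. Levels were therefore compared per 1000000 UMIs, and each ratio was recomputed at matched depth. The median gene of these comparisons lay between −0.15 and 0.02 on the log2 scale.

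As counted, *Irf4* was the member that differed most with cytokine status, in both libraries and for every cytokine. In WT cells it stood at 25.6 CPM in *Il13*-positive and 15.9 in *Il13*-negative cells, a log2 ratio of 0.69 (0.51 to 0.86). The WT ratios were 0.75 (0.57 to 0.92) for *Il2*, 0.73 (0.52 to 0.95) for *Il5* and 0.88 (0.70 to 1.06) for *Tnf*. In Pac1-/- cells the ratio was largest for *Il13*, with 17.8 CPM in positive and 5.08 in negative cells (1.81, 1.55 to 2.07). It was 1.004 (0.73 to 1.28) for *Il5*, 0.33 (0.09 to 0.57) for *Il2* and 0.45 (0.21 to 0.70) for *Tnf*. As counted, the 4 WT intervals overlapped each other, whereas in Pac1-/- cells that for *Il13* lay above the other 3. After thinning each cell to 1500 UMIs the Pac1-/- intervals overlapped as well.

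Relative to the median gene, *Irf4* was the only member at least 1.5-fold higher in WT cells positive for each cytokine, that is 1 of 7 members, where 0.719% (*Il2*), 4.49% (*Il5*), 1.67% (*Il13*) and 1.09% (*Tnf*) of all genes were. That call was lost for *Il2* within depth bins, for *Il13* within 10 depth bins and for *Tnf* after thinning. In Pac1-/- cells, *Irf4* and *Nfatc1* were at least 1.5-fold higher with *Il5* and with *Il13*, where 4.36% and 3.01% of all genes were. With *Il2* and *Tnf*, 0 of 7 were, against 0.789% and 1.1% of all genes. In Pac1-/- cells the *Irf4* call for *Il5* was lost as the mean within 4 depth bins. The *Nfatc1* calls there were lost for *Il5* within depth bins and for *Il13* after thinning. By its relative ratio, *Irf4* lay at the 99.9th percentile of all genes compared for *Il13* in Pac1-/- cells, and at the 96.9th for *Il2*.

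**Figure D3:**
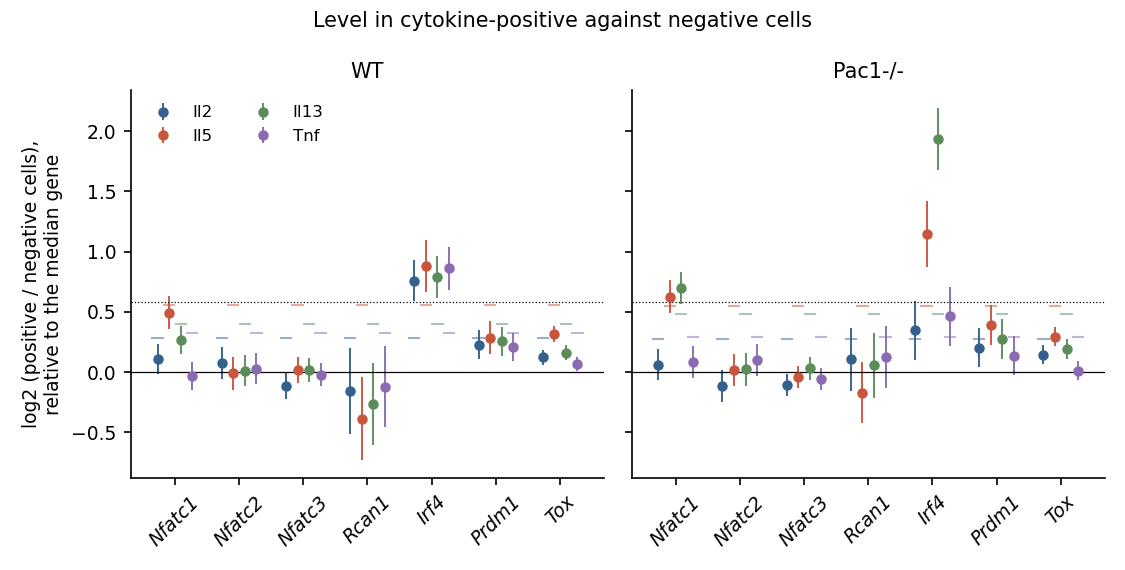
Log2 ratio of each member in cytokine-positive over negative cells, relative to the median gene, in WT (left) and Pac1-/- cells (right), with 95% exact binomial intervals. The dotted line marks 1.5-fold and each short bar the 95th percentile of all genes for that cytokine. *Irf4* lies highest in each panel, reaching 1.93 for *Il13* in Pac1-/- cells.

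Cytokine-positive cells were deeper than negative ones, and the *Irf4* ratios were also taken at matched depth. By quartile of cell depth, *Irf4* stood at 13.7, 18.2, 15.2 and 23.6 CPM in WT, and at 6.82, 4.41, 8.44 and 11.9 in Pac1-/- cells. Within 10 bins of cell depth, the *Il13* ratio was 0.49 in WT and 1.66 in Pac1-/- cells. After thinning to 1500 UMIs it was 1.11 (0.60 to 1.60; 47 UMIs in positive cells) in WT and 1.69 (0.80 to 2.51; 17 UMIs) in Pac1-/-. The *Il5* ratio was 0.50 and 0.72 within 10 depth bins, and 0.10 for Pac1-/- as the mean over 4 bins. The *Il2* ratio was 0.58 in WT and −0.09 in Pac1-/- cells within 10 depth bins, and 0.66 (−0.10 to 1.35) and 0.52 (−0.86 to 1.65) after thinning. The *Tnf* ratio was 0.77 and 0.04 within 10 bins, and after thinning it was −0.33 (−1.10 to 0.36; 19 UMIs in positive cells) in WT and 1.43 (0.46 to 2.30; 14 UMIs) in Pac1-/-. *Irf4* was thus higher with *Il13* under every setting tried in both libraries (0.49 to 1.82 in WT, 1.39 to 2.34 in Pac1-/-), and likewise with *Il5* when the other cytokines were not held the same, whereas the *Il2* ratio in Pac1-/- and the *Tnf* ratio in WT each changed sign in at least 1 of the depth-matched settings.

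The 16 combinations of the 4 cytokines let each cytokine be read with the other 3 held the same (plot of *Irf4* by combination). In WT, *Irf4* was lowest, at 7.27 CPM (5.49 to 9.44), in the 2269 cells with none of the 4, and ran from 12.2 to 38.2 in the other combinations. In Pac1-/- it was 4.04 (2.98 to 5.36) in the 2531 cells with none. Adding *Il13* with the other 3 held the same gave a higher level in 8 of 8 pairs of Pac1-/- combinations and in 7 of 8 WT pairs, with intervals that did not overlap in 6 and in 2 of them. Depth was not held the same within pairs, and some combinations rest on few UMIs (3 in Pac1-/- cells with *Il2* and *Il13*, 5 in those with *Il2* alone). Adding *Tnf* did so in 7 of 8 WT pairs and 5 of 8 Pac1-/- pairs, and adding *Il2* in 6 of 8 and 4 of 8. Adding *Il5* did so in 7 of 8 Pac1-/- pairs but in only 4 of 8 WT pairs. Intervals lay apart in 4 of these WT pairs for *Tnf*, 1 for *Il2* and 1 for *Il5*, and in 1, 0 and 2 Pac1-/- pairs. In Pac1-/- cells the combinations with *Il13* had a median level of 17.3 and those without it 4.94, against 25.2 and 18.1 in WT.

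Where *Il13* was present without *Il2*, *Irf4* in Pac1-/- cells was at or above the WT level in 3 of 4 combinations. It stood at 19.3 (Pac1-/-) and 17.4 (WT) CPM in cells with *Il13* alone, with overlapping intervals of 13.0 to 27.6 and 11.3 to 25.7. In cells with *Il5* and *Il13* it stood at 24.0 (19.4 to 29.3) in Pac1-/- and 17.3 (14.0 to 21.1) in WT. In cells with *Il13* and *Tnf* it stood at 33.6 (22.5 to 48.3) and 25.9 (16.01 to 39.5). In cells with *Il5*, *Il13* and *Tnf* it was lower in Pac1-/-, at 13.1 (9.19 to 18.2) against 25.8 (21.7 to 30.5). It was also lower in Pac1-/- in all 4 combinations of *Il13* with *Il2*. With these 2 alone it stood at 3.77 (0.777 to 11.005) in Pac1-/- against 38.2 (19.0 to 68.3) in WT. With all 4 cytokines it stood at 16.6 (13.9 to 19.7) against 33.0 (29.1 to 37.2). Intervals overlapped in the other 2, as with *Il2*, *Il5* and *Il13*, at 18.1 (12.9 to 24.6) against 24.6 (19.4 to 30.8). In cells with *Il5* alone it stood at 4.52 (2.98 to 6.58) in Pac1-/- and 14.3 (11.8 to 17.2) in WT. These combinations were singled out after their values were seen.

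**Figure D4:**
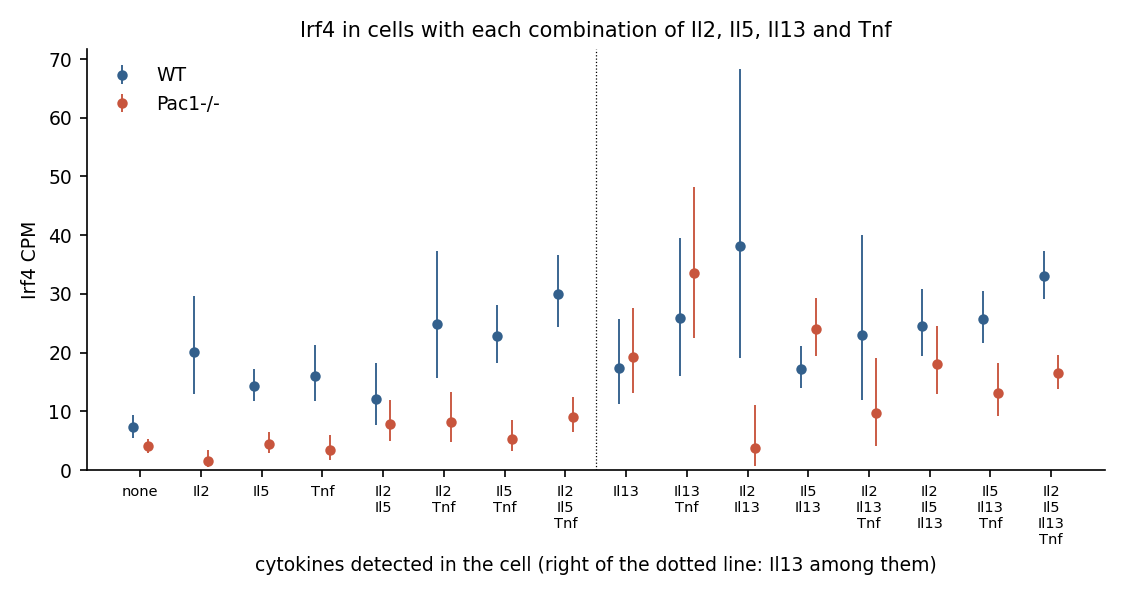
*Irf4* in CPM in cells with each combination of *Il2*, *Il5*, *Il13* and *Tnf*, in WT (blue) and Pac1-/- (red), with 95% Poisson intervals. Left of the dotted line, without *Il13*, the Pac1-/- values lie between 1.497 and 9.13, and right of it between 3.77 and 33.6.

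*Irf4* UMIs were concentrated in few cells. Cells with at least 3 *Irf4* UMIs numbered 99 in WT and 53 in Pac1-/-, and held 36.4% and 46.1% of all *Irf4* UMIs. Of the 53 Pac1-/- cells, 42 also held *Il13* and 45 held *Il5*, and of the 99 WT cells, 65 and 83 did. ILC2 markers, 3 or more, were present in 98 of the 99 and 52 of the 53, and at least 3 markers of another type in 9 and 2. These were deep cells, with a median of 15056 and 16527 UMIs. Without them the *Il13* ratio was 0.51 (0.29 to 0.73) in WT and 1.14 (0.80 to 1.47) in Pac1-/-. The Pac1-/- ratios without them were 0.44 (0.10 to 0.80) for *Il5*, 0.13 (−0.21 to 0.47) for *Il2* and 0.51 (0.17 to 0.84) for *Tnf*, and the WT ratios 0.54, 0.50 and 0.55, each with an interval above 0.

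The share of thinned cells with each cytokine was also read by whether they held an *Irf4* UMI. In WT, 35 of 155 such cells held *Il13* (22.6%, 16.3% to 30.0%), against 13.6% (12.8% to 14.4%) of cells without. In Pac1-/-, 14 of 60 did (23.3%, 13.4% to 36.0%), against 9.39% (8.70% to 10.1%). *Il5* was found in 43.9% (35.9% to 52.1%) and 32.9% (31.9% to 34.0%) of WT cells with and without *Irf4*, and in 15 of 60 (14.7% to 37.9%) and 19.2% (18.3% to 20.2%) of Pac1-/- cells, where the intervals overlap. *Tnf* was found in 12 of 60 Pac1-/- cells with *Irf4* (10.8% to 32.3%) and 8.84% (8.16% to 9.56%) of those without, but in 11.6% (7.03% to 17.7%) and 12.7% (11.98% to 13.5%) in WT. The intervals for *Il2* overlapped in both libraries. Barcodes with markers of another cell type made up 2.31% of *Il13*-positive and 0.720% of *Il13*-negative WT cells, and 2.04% and 1.22% in Pac1-/-. The *Irf4* ratio for *Il13* without those barcodes was 0.69 in WT and 1.93 in Pac1-/-.

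In unthinned cells, with status read from 1 UMI, *Nfatc1* was the only member besides *Irf4* past 1.5-fold relative to the median gene. It was so in Pac1-/- cells only, and whether its ratios differ between libraries was not tested. It stood at 41.8 CPM in *Il13*-positive and 28.0 in *Il13*-negative Pac1-/- cells (log2 ratio, 0.58, 0.45 to 0.71), and at 37.6 and 26.8 by *Il5* (0.48, 0.35 to 0.62). In WT the ratios were 0.17 (0.05 to 0.29) and 0.34 (0.20 to 0.48). With *Il5* added and the other 3 cytokines held the same, *Nfatc1* was higher in 8 of 8 Pac1-/- and 7 of 8 WT pairs. With *Il13* added it was higher in 7 of 8 Pac1-/- pairs but in only 3 of 8 WT pairs. Among these pairs, intervals lay apart in 1 of each library for *Il5*, and in 2 Pac1-/- and 0 WT pairs for *Il13*. At matched depth the *Il13* ratio in Pac1-/- was 0.51 within 10 depth bins and 0.30 (−0.26 to 0.82) after thinning, and the *Il5* ratio 0.40 and 0.62 (0.24 to 1.00035). As counted, neither was past 1.5-fold, and relative to the median gene the call was lost for *Il13* after thinning and for *Il5* within depth bins. The *Nfatc1* ratios for *Il2* and *Tnf* in Pac1-/- cells, 0.05 and 0.07 as counted, were not past 1.5-fold. After thinning they were −0.34 (−1.11 to 0.35) and −0.30 (−0.99 to 0.33).

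Without thinning, the other 5 members stayed within 1.5-fold of the median gene for every cytokine in both libraries. *Nfatc2* and *Nfatc3*, the calcium-responsive factors already present at rest, had ratios between −0.18 and 0.09 over the 8 comparisons. *Prdm1* ratios lay between 0.13 and 0.25, with 46.3 CPM in *Tnf*-positive and 39.6 in *Tnf*-negative WT cells as an example. After thinning they were 0.60 (0.12 to 1.05) for *Il5* and 0.67 (0.04 to 1.25) for *Tnf* in Pac1-/- cells. Relative to the median gene these came to 0.78 and 0.69, past 1.5-fold. In thinned WT cells they were −0.18 (−0.47 to 0.10) for *Il5* and −0.22 (−0.64 to 0.17) for *Il13*. The remaining thinned *Prdm1* ratios of both libraries lay between 0.07 and 0.22. *Tox* ratios lay between 0.00 and 0.17. *Rcan1* went the other way in WT, at 4.93 CPM in *Il5*-positive and 7.15 in *Il5*-negative cells (−0.54, −0.88 to −0.19), and at 7.93 and 9.83 in Pac1-/- (−0.31, −0.57 to −0.05). By *Il13* its ratio was −0.36 (−0.70 to −0.02) in WT and −0.07 (−0.34 to 0.20) in Pac1-/-. *Rcan1* rests on 113 to 266 UMIs in the *Il5* sets.

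By the number of the 4 cytokines a cell held, from 0 to 4, *Irf4* in WT stood at 7.27, 15.6, 19.6, 26.5 and 33.0 CPM (plot of each member by the number of cytokines). In Pac1-/- it stood at 4.04, 5.15, 13.3, 12.2 and 16.6. *Prdm1* stood at 39.1 with none and 50.4 with all 4 in WT, and at 19.1 and 26.0 in Pac1-/-. *Tox* stood at 144 and 177 in WT and at 81.0 and 92.2 in Pac1-/-. *Nfatc1* stood at 35.9 and 46.2 in WT and at 27.0 and 38.6 in Pac1-/-. *Nfatc3* was lower with all 4 than with none (60.9 against 68.8 in WT, 65.8 against 77.7 in Pac1-/-), and *Rcan1* was lower in WT (4.33 against 7.01) and nearly level in Pac1-/- (8.49 against 9.09). Cell depth moved with this number, from a median of 3310 to 20011 UMIs in WT. In thinned WT cells with 0, 1 and 2 cytokines, *Prdm1* stood at 42.1, 48.4 and 27.7, and *Tox* at 161, 164 and 152. *Nfatc1* stood at 41.2, 40.9 and 35.5. These were lower with 2 than with 0. *Irf4* rose, at 12.4, 17.2 and 21.3. In thinned Pac1-/- cells *Prdm1* (17.96, 24.7, 31.2), *Tox* (81.1, 94.99, 107.8), *Nfatc1* (27.9, 32.5, 43.97) and *Irf4* (4.33, 9.18, 17.02) all rose. Intervals of 0 and 2 lay apart only for *Irf4* in Pac1-/-. Depth was not tested beyond these levels and the matched ratios above.

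**Figure D5:**
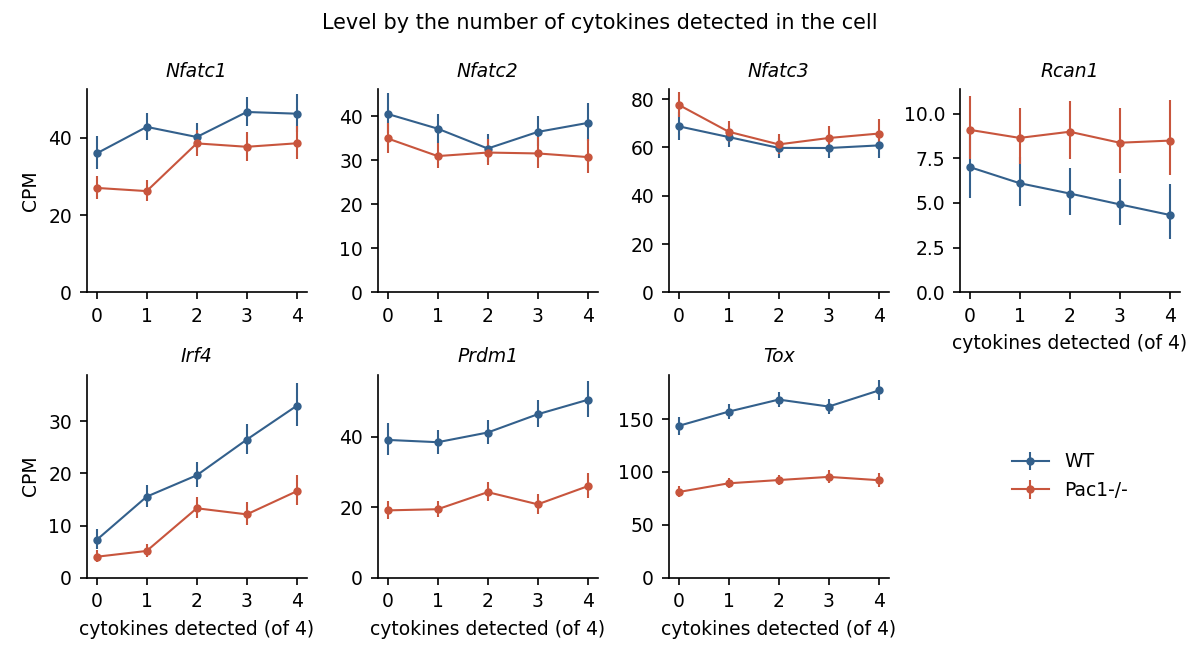
Level of each member in CPM (y axis from 0) against the number of *Il2*, *Il5*, *Il13* and *Tnf* detected in the cell, in WT (blue) and Pac1-/- (red), with 95% Poisson intervals. *Irf4* in WT is at 7.27 with none and 33.0 with all 4, while *Tox* and *Prdm1* lie apart by genotype at every number.

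Co-detection of the members in single cells was sparse. Over the 21 pairs in thinned cells, the observed number with both, divided by the number expected from each alone, had a median of 0.993 in WT (0.491 to 1.36) and 0.883 in Pac1-/- (0 to 2.12). The highest Pac1-/- ratio was that of *Nfatc3* with *Rcan1*, at 16 cells against 7.55 expected, followed by *Nfatc3* with *Irf4*, at 11 against 5.46. The highest correlation of detection over cells was 0.016 in WT and 0.040 in Pac1-/-, which in counts this sparse is no finding.

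Around the members, genes of the pathway were read from 7 lists, also chosen with earlier results of these data known. Of 17 genes of calcium entry and calcineurin, 2 were at least 1.5-fold below the median gene in Pac1-/- cells and 0 above, beside 13.1% and 8.58% of all genes. These were *Calm2*, a calmodulin gene (relative log2 ratio, −0.82), and *Itpr1*, an IP3 receptor of the endoplasmic reticulum (−0.60). The list's median was −0.27. *Orai1*, the pore of the store-operated calcium channel, was higher with *Il5*, at 112 CPM in *Il5*-positive and 72.8 in negative WT cells (relative 0.77), and at 95.7 and 58.7 in Pac1-/- (0.85). Its relative ratios were 0.44 and 0.72 for *Il13*, −0.05 and −0.01 for *Il2*, and −0.17 and −0.04 for *Tnf*. The 13 measured genes of the NFAT family and its kinases, scaffolds and immunophilins had 0 past 1.5-fold in either direction by genotype, with a median of 0.18.

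Of 12 measured NFAT-linked targets, 6 were at least 1.5-fold lower and 1 higher in Pac1-/- cells, beside 13.1% and 8.58% of all genes, with a median of −0.60. *Egr2* (5.31 against 10.7 CPM, relative −1.20), *Nr4a3* (355 against 706, −1.18) and *Tnfrsf9*, which encodes 4-1BB (11.5 against 22.2, −1.13), were among the lower, and *Ifng* was higher on 48 against 4 UMIs. Within WT, 5 of 9 measured targets were 1.5-fold higher in *Il5*-positive and 4 of 10 in *Il13*-positive cells, beside 4.49% and 1.67% of all genes. Within Pac1-/-, 6 of 11 and 8 of 10 were, beside 4.36% and 3.01%. With *Il2*, 0 of 10 were in WT and 0 of 11 in Pac1-/- (0.719% and 0.789% of all genes), and with *Tnf*, 0 of 10 and 1 of 11 (1.09% and 1.1%). *Xcl1*, a chemokine gene, was on the lower side with *Il13* in Pac1-/- cells (relative −0.75, on 20 and 65 UMIs) and with *Il2* (−0.78, on 25 and 60). *Tnfrsf9* stood at 27.9 CPM in *Il5*-positive and 8.22 in negative WT cells (relative 1.91), and at 16.6 and 4.76 in Pac1-/- (1.94). *Nr4a3* stood at 826 and 410 in WT and at 468 and 203 in Pac1-/-. *Il4*, a cytokine gene next to *Il13*, followed *Il13* (relative 1.07 in WT, 1.11 in Pac1-/-) and not *Il5* (−0.22 and 0.06).

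Of 8 AP-1 and BATF genes, *Fosl1* (4.75 against 11.2 CPM, relative −1.43) and *Fosl2* (524 against 740, −0.69) were at least 1.5-fold lower in Pac1-/- and 0 were higher, beside 13.1% and 8.58% of all genes. *Batf*, whose product binds DNA together with IRF4, was near the median gene (−0.10). Of the 12 genes of the IRF and Blimp-1 network, *Ikzf3*, which encodes Aiolos, was lower (169 against 262, −0.82) and *Id3*, an inhibitor of E proteins, was higher (4.22 against 2.05, 0.85). With *Il5*, 3 of the 12 were at least 1.5-fold higher in WT and 4 in Pac1-/- (4.49% and 4.36% of all genes), with list medians of 0.31 and 0.40. With *Il13*, 0 were higher in WT and 3 in Pac1-/- (1.67% and 3.01% of all genes). With *Il2* and *Tnf*, 0 were higher in either library (0.719% to 1.1% of all genes). For each cytokine, 1 or 2 of the 12 were at least 1.5-fold lower in each library (1.3% to 2.26% of all genes). *Bcl6*, which opposes Blimp-1 in lymphocytes, lay at −0.37 by genotype. In the *Tox* family only *Tox2* (56 against 30 UMIs, 0.62) and *Tox4* (−0.18) had counts enough to compare. Of 7 Gq-coupled and activating receptor genes, *Cysltr1*, a leukotriene receptor, was higher in Pac1-/- (160 against 78.7 CPM, relative 0.84) and *Il2ra*, which encodes the IL-2 receptor alpha chain, lower (405 against 572, −0.68). *Nmur1*, the neuromedin U receptor, lay at 0.17.

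The genes whose levels were most like those of the members were ranked by Pearson's r of log2(CPM + 5), centred within library, over 32 groups (16 combinations in each library) and 6998 genes. The groups share depth and cells of one library, so r is a description. *Irf4* was most like *Traf1*, a TNF receptor adaptor (r = 0.75), *Itpr1* (0.68) and *Ube2j1* (0.67). *Nfatc1* was most like *Ptp4a2* (0.81), *Calca*, which encodes CGRP (0.79), and *Tgfb1* (0.78). *Tox* was most like *Hccs* (0.67), *Mycn* (0.67) and *Bcl6* (0.64), *Prdm1* like *Tra2b* (0.66), *Dyrk3* (0.61) and *Gpx1* (0.60), and *Rcan1* like *Nkiras1* (0.83), *4931406P16Rik* (0.74) and *Mthfd1* (0.71). *Nfatc2* was most like *Mrps16* (0.78), *Mbd2* (0.77) and *Dpm2* (0.77), and *Nfatc3* like *Otud6b* (0.83), *Tmx3* (0.79) and *E130102H24Rik* (0.79). With ranks in place of levels, or groups of at least 100 cells, 12 of 14 such lists differed in 2 or more genes, and of the genes named, only *Nkiras1* for *Rcan1* and *Bcl6* for *Tox* stood in all 3 versions.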

How the data were processed

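Lung ILC2s of each genotype had been enriched by magnetic depletion, sorted and pooled, and libraries prepared with 10x Genomics 3′ v3.1 chemistry. The deposited values are raw counts of unique molecular identifiers (UMIs) by gene and cell barcode. The authors made these with Cell Ranger by alignment to mm10, without normalization. The file header names version 4.0.0 and the submitters' processing notes 6.1.1. The annotation release was not given in the sources used here. Barcodes were those Cell Ranger called as cells.

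Here, barcodes were kept if 500 or more genes were detected and mitochondrial genes took no more than 10% of UMIs, without clustering or a doublet caller. A level is the summed UMIs of a gene per 1000000 summed UMIs (CPM), with an exact Poisson interval. Ratios have exact conditional binomial intervals and shares exact Clopper-Pearson intervals, at 95%. Genes with at least 20 expected UMIs in the smaller group were compared, and a gene counted as different when its log2 ratio, less that of the median gene, passed 1.5-fold. With 1 library per genotype no p-value was computed. For shares, each cell was thinned to 1500 UMIs. A cell was positive for a cytokine when it held 1 UMI of it, so that status depends on depth.

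The named genes were all 7 members, up to 4 genes past 1.5-fold from each of 7 pathway lists, for which values of other listed genes are given where they show the contrast, and the 3 genes most like each member. The members and lists were chosen with earlier results of these data known. Alternatives were a stricter cell filter, all barcodes, removal of deep barcodes or of those with markers of other cell types, thinning, depth bins, other status rules and another scaling. Gene positions came from GENCODE vM21, which matched 99.8% of the gene identifiers, and promoter windows from RefSeq. Ratios and their intervals were tested on simulated Poisson counts, which hold no added spread between cells. Python 3.11.15, numpy 2.4.6, scipy 1.17.1, pandas 2.3.3 and matplotlib 3.10.9 were used.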

Additional observations from a re-analysis of the deposited data

How the results depend on the processing

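Of the log2 ratios between libraries, 55 of 70 alternative values stayed within the counting interval of the reported one and 15 did not, and the count of members at least 1.5-fold lower in Pac1-/- cells stayed within 1.5 times of 3 in all 7 alternatives. As counted, without reference to the median gene, 1 member (*Rcan1*) was at least 1.5-fold higher. The 8.58% of all genes given above was taken relative to the median gene, so it is no background for that count. Of the ratios by cytokine status, 407 of 560 alternative values stayed within the interval and 153 did not. Their sign changed in 81 of the 560, over 32 of the 56 ratios. Among ratios past 1.5-fold relative to the median gene, the sign changed in 1 value, that of *Irf4* for *Tnf* in thinned WT cells (−0.33). Among the others, *Irf4* for *Il2* in Pac1-/- cells went from 0.33 to −0.32 as the mean within 4 depth bins, and *Rcan1* for *Il2* in WT from −0.17 to 1.12 when thinned. The number of members at least 1.5-fold higher changed for *Il2* in WT to 2 (thinned), 0 (mean within 4 depth bins) and 0 (within 10 depth bins), for *Il5* in WT to 2 (at least 2 UMIs of the cytokine), for *Il13* in WT to 0 (within 10 depth bins) and for *Tnf* in WT to 0 (thinned). In Pac1-/- cells it changed for *Il2* to 1 (at least 2 UMIs, and against cells with none of the 4), for *Il5* to 0 (mean within 4 depth bins), 1 (within 10 depth bins) and 1 (as counted), for *Il13* to 1 (thinned, and as counted), and for *Tnf* to 1 (cells with 1000 to 2500 genes and under 5% mitochondrial UMIs, at least 2 UMIs, and against cells with none) and 2 (thinned). Counts that stayed within 1.5 times of the reported one are not listed. For *Il5* in Pac1-/- cells, *Prdm1* joined *Irf4* and *Nfatc1* past 1.5-fold after thinning (relative 0.78 for *Prdm1*). The causes were not tested. The fit within 10 depth bins was chosen after the data were seen. Thinning leaves 155 WT and 60 Pac1-/- cells with *Irf4*, which limits its precision. No paired analysis was possible because each genotype is 1 pooled library. For the same reason no replicate could be left out, and genotype cannot be told apart from mouse, sort or library.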
